A study of Mus musculus with 12 samples.

Results

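MiR-184 and miR-338 are microRNAs (miRNAs), short RNAs that lower the output of the messenger RNAs they pair with, and both are known for their part in how insulin-producing beta cells adjust to demand. They were followed here in pancreatic islets of male C57BL/6 mice aged 2 to 3 months, in 6 LP0.5 samples (offspring of dams fed a low-protein diet through pregnancy) and 6 Control samples (offspring of dams fed a control diet). Hand-picked islets recovered overnight in medium with 5 mM glucose before total RNA was taken for TaqMan real-time PCR with a FAM probe. The labels do not say whether a sample is 1 mouse or a pool. These miRNAs were chosen with earlier results of these data known. Their assays were then taken by name: every assay named miR-184 or miR-338, without starred strands, each arm kept apart. This gave 4 of the 750 miRNA assays of the panel, and no starred assay of either miRNA was present to leave out. They are hsa-miR-184 and hsa-miR-338-3p in the A set of assays, and hsa-miR-338 and HSA-MIR-338-5P in the B set.

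MiR-184 restrains Argonaute2, the protein that loads miRNAs onto their targets, and the mitochondrial glutamate carrier Slc25a22. Its level is known to fall in islets of obese, insulin-resistant mice, where its loss goes with beta cell expansion. MiR-338-3p is known to fall in rodent islets during pregnancy and obesity, and lowering it in isolated beta cells promotes their proliferation and survival. Outside the islet miR-338 is best known from neurons and from the maturation of oligodendrocytes, the myelin-forming cells of the brain.

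The sequences are shown first, since the 4 assays stand for different strands of 2 hairpins. They are the mouse RefSeq entries of build GRCm38.p6, 5′ to 3′. In the hairpins the capitals mark the mature arms, the 5p arm first.
Mir184 hairpin: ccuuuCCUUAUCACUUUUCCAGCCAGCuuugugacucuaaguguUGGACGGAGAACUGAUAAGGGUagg
Mir338 hairpin: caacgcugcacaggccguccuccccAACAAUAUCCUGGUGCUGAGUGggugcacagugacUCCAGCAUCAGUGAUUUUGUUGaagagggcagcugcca
In the mature strands the capitals mark the seed, bases 2 to 8, through which a miRNA mainly recognises its targets.
miR-184-3p: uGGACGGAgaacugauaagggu
miR-184-5p: cCUUAUCAcuuuuccagccagc
miR-338-3p: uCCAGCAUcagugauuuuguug
miR-338-5p: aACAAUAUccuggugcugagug

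The Mir184 hairpin lies at chr9:89802260-89802328 on the minus strand, where the RefSeq table lists no overlapping gene. Its nearest protein-coding genes are Ankrd34c and Rasgrf1. The Mir338 hairpin lies at chr11:120014765-120014862 on the minus strand, within the bounds of the protein-coding gene Aatk, a neuronal kinase gene known as the host of miR-338. A further miRNA gene, Mir3065, lies on the opposite strand of the same site. Its mature strand is complementary to miR-338-3p over 21 bases in a row, in capitals below, and the panel held no assay of it.
miR-3065-5p: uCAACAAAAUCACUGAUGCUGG
All 4 mature strands of Mir184 and Mir338 are 22 bases long, and the number of G and C bases runs from 9 in miR-338-3p to 11 in both arms of miR-184. Their seeds differ from each other. Each of the 4 seeds occurs in 1 of the 1738 mature miRNAs of the RefSeq table, so neither miRNA has a seed relative among them. The assays carry human names, and human sequences were not used here. The names hsa-miR-184 and hsa-miR-338 state no arm, so these assays are not tied to 1 of the printed strands.

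One deposited table holds a single linear ratio for each assay, headed as LP0.5 against Control, with no value per sample, no error and no test. A second table holds 12 columns of per-sample values whose names match no sample label, and nothing was computed from them. The ratios below could therefore neither be tested nor checked against replicates, and levels, detection and overlap between groups were not analysed here. The direction rests on the column heading: a ratio above 1 reads as higher in LP0.5 islets. That heading is not settled by the rest of the table. MiR-199a-3p, which the study is known for reporting as raised in low-protein islets, stands at 0.422 in the authors' deposited table. In bulk islets, fewer cells of a type and less RNA per cell cannot be told apart.

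In the order of their listed ratios, miR-184 stood above 1, the arm-less miR-338 assay just below it, miR-338-3p clearly lower and miR-338-5p lowest. The authors' deposited table gave miR-184 a ratio of 1.15, which is 0.20 on the log2 scale. It gave the hsa-miR-338 assay 0.918, or -0.12 on the log2 scale. For miR-338-3p the authors' deposited table gave 0.613, or -0.71 on the log2 scale, and for miR-338-5p 0.311, or -1.68. If the heading ran the other way, these ratios would turn to 0.873 for miR-184, 1.09 for the arm-less assay, 1.63 for miR-338-3p and 3.21 for miR-338-5p, in the opposite order. Without per-sample values it cannot be said which neighbours in this order differ beyond their spread. The miR-338-5p ratio carries a further limit. In the table of unmatched per-sample values, its row holds 1 value far below the others and 1 missing value. Which samples these belong to is not known, so 0.311 may rest on 1 well, and its place as the lowest of the 4 ratios may too. The ratio without that value could not be computed. Only the row of miR-338-5p is described here, so the other ratios are not thereby cleared of such a limit.

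**Figure D1:**
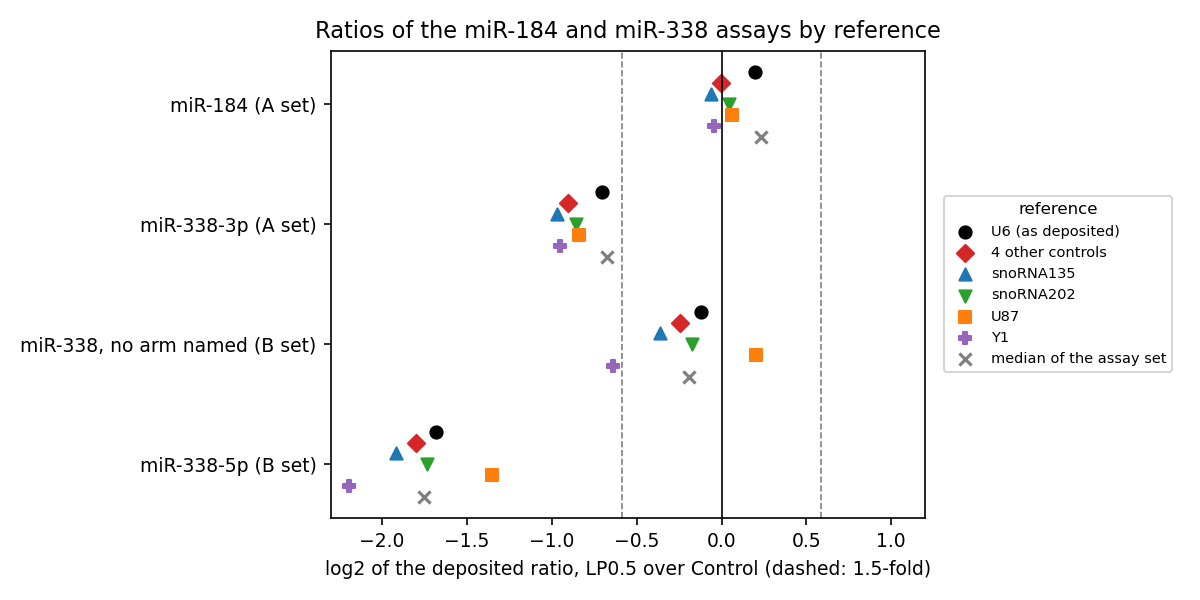
Log2 of the authors' deposited ratio, LP0.5 over Control (horizontal axis, dashed lines at 1.5-fold), for the 4 assays, as deposited (U6 reference, black) and with other references of the same assay set. MiR-338-3p and miR-338-5p lie left of the lower dashed line with every reference drawn, miR-184 lies from -0.06 to 0.23, and the arm-less miR-338 assay ranges from -0.64 to 0.21.

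The 2 assays at least 1.5-fold from 1 were miR-338-3p and miR-338-5p, both below 1. Over the panel a ratio that far from 1 was common: it was listed for 35.3% of the 566 miRNA assays with a ratio in the authors' deposited table, for 18.6% above 1 and for 16.8% below 1. In the A set, which holds miR-338-3p, 15.8% were that far below 1, and in the B set, which holds miR-338-5p, 17.9% were. By this count, passing the limit in this direction is no particular feature of miR-338 on this panel. The count takes in every listed ratio, down to values such as 0.00136 for miR-1897-3p. Detection was not analysed, so how much of these shares comes from poorly detected assays is not known.

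Within its assay set miR-184 lay between the median and the upper quartile. In the A set, 213 of the 304 assays with a ratio were listed lower than miR-184 and 90 higher. The set had a median ratio of 0.976, and its range from the 25th to the 75th percentile, 0.796 to 1.19, held miR-184. For miR-338-3p, 38 of these 304 assays were listed lower. In the B set, 26 of 262 assays were listed lower than miR-338-5p and 95 lower than the arm-less miR-338 assay. The middle range of the B set was wider, from 0.784 to 1.48, and held the arm-less assay. Both miR-338-3p and miR-338-5p lay below the 25th percentile of their sets, and 9.92% of the B set was lower than miR-338-5p.

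**Figure D2:**
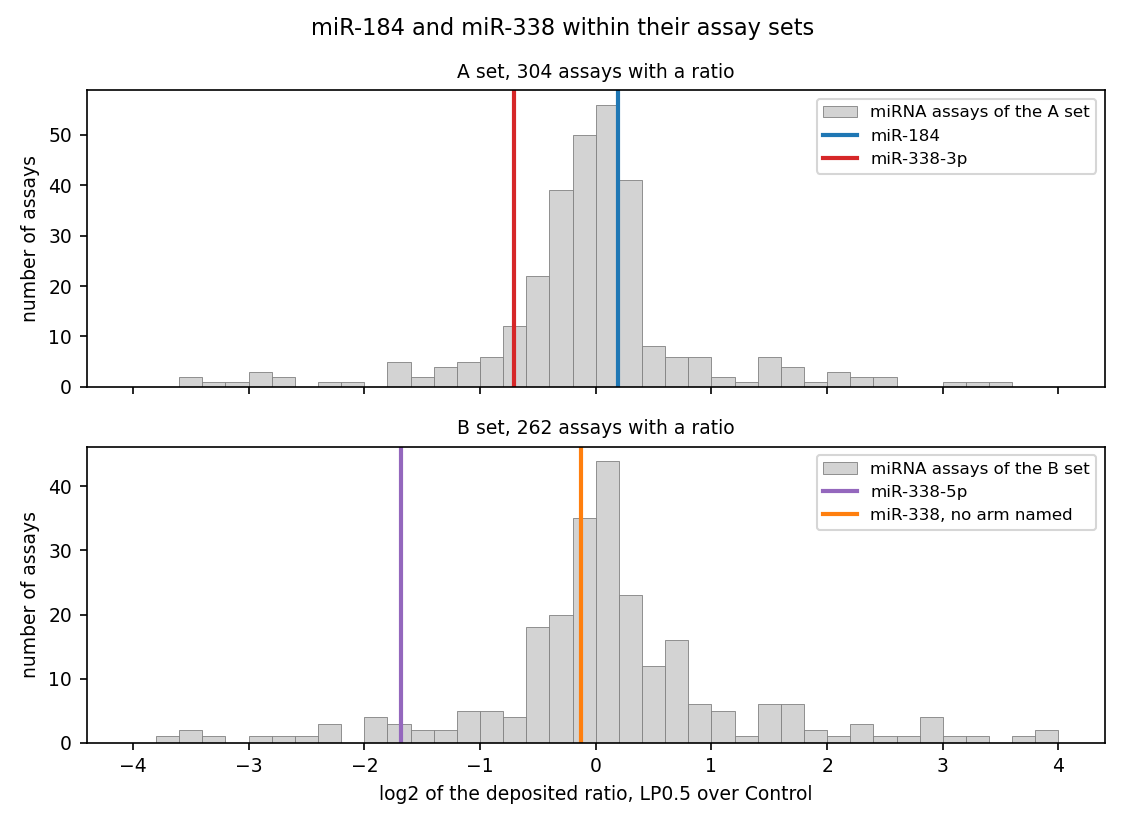
Number of miRNA assays (vertical axis) by log2 of the authors' deposited ratio, LP0.5 over Control (horizontal axis, bins of 0.2), for the A set (top, 304 assays) and the B set (bottom, 262 assays), with coloured lines at the miR-184 and miR-338 assays. MiR-184 and the arm-less miR-338 assay stand near the peaks and the miR-338-3p and miR-338-5p assays in the left tails; 3 assays lie below and 4 above the axis in the A set, and 11 below and 7 above in the B set.

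The 3 assays of miR-338 were all below 1 relative to U6 but spread widely. Relative to U6, the miR-338-5p ratio was 1.97-fold below that of miR-338-3p, its partner arm from the same hairpin. This is a difference of -0.98 on the log2 scale. The 2 arms are in different assay sets, so the gap depends on the reference. With U87 miR-338-5p stood at -1.35 and miR-338-3p at -0.84, and with Y1 at -2.20 and -0.95. The miR-338-5p ratio may also rest on 1 well. For scale, 22 other miRNA names on the panel have both a 3p and a 5p assay with a ratio. Relative to U6, their arms lay a median of 1.54-fold apart, and 9 of the 22 lay at least as far apart as the arms of miR-338. None of the 22 had both arms at least 1.5-fold below 1. With 16.8% of single assays that far below 1 over the panel, 22 pairs are too few to read anything from that. Relative to U6, the hsa-miR-338-3p ratio was -0.58 from that of the arm-less hsa-miR-338 assay on the log2 scale. The HSA-MIR-338-5P ratio was -1.56 from it. The first gap also spans both sets: hsa-miR-338-3p and hsa-miR-338 stood at -0.84 and 0.21 with U87, and at -0.95 and -0.64 with Y1. The second gap lies within the B set but rests on the same miR-338-5p ratio. The ratio listed for miR-338 thus differed between assays. Among 26 miRNA names measured by 1 assay in each set, the paired ratios were a median of 1.31-fold apart relative to U6. Of these pairs, 11 lay at least as far apart as hsa-miR-338-3p and hsa-miR-338. MiR-184 was measured by 1 assay, so no second assay bears on its value. The gap between miR-338-3p and miR-184, which share an assay set and hence its reference, was -0.90 on the log2 scale and does not depend on the choice of reference.

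The reference decided on which side of 1 miR-184 stood. The ratios are relative to the small nuclear RNA U6, whose 8 spots in each set average 0 on the log2 scale. With the snoRNA135, snoRNA202, U87 and Y1 spots of the A set in place of U6, miR-184 came to -0.00029 on the log2 scale, and with snoRNA135 alone to -0.06. MiR-338-3p moved further below 1 with those 4 controls, to -0.90 on the log2 scale, and miR-338-5p to -1.80. The arm-less miR-338 assay came to -0.64 with Y1 alone, past the 1.5-fold limit, and to 0.21 with U87 alone. The U87 value in the B set includes 1 outlying spot, whose ratio in the authors' deposited table was 0.133. The plant assay ath-miR159a, a negative control without a target in mice, also had ratios in the authors' deposited table. All 8 of its B set spots had one, between 2.59 and 3.37, and 2 of its 8 A set spots, at 0.139 and 1.96. Its part in the B set values of miR-338 was not tested.

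The wider list of miRNAs tied to beta cell growth and insulin secretion holds 37 names, of which 36 had a ratio. Their median was 0.915, and 24 of them stood below 1 and 12 above it. Without miR-184 and both named arms of miR-338 these were 22 and 11, with a median of 0.918. Like the members, the list was chosen with earlier results of these data known. Over all 566 miRNA assays the median was 1.01, and 278 stood below 1 and 288 above it. The split of the list depended on the reference. With snoRNA135, snoRNA202, U87 and Y1 in place of U6, 30 members stood below 1 and 6 above it, with a median of 0.807. Without the outlying U87 spot these were 31 and 5, with a median of 0.795. Both references lower every assay of the panel, so the panel split of 278 and 288 holds for U6 only. The panel split with them was not counted. With them 130 and 135 of the 566 assays were at least 1.5-fold below 1, against 95 with U6. Relative to U6, 6 of the 36 (16.7%) were at least 1.5-fold below 1, close to the 16.8% of the whole panel. None of the 36 was that far above 1, beside 18.6% of the whole panel. Both named arms of miR-338 are among those 6, miR-338-5p at the lowest place and miR-338-3p at the fifth. The 16.7% is thus no separate yardstick for them. The other 4 in the authors' deposited table were miR-199a-3p at 0.422, miR-7b at 0.523, miR-9, which limits insulin release through the factor Onecut2, at 0.558, and the red cell miRNA miR-451 at 0.620. MiR-184 stood at place 31 of 36 counted from the lowest. With the heading turned round, the places counted from the lowest would be 36 for miR-338-5p, 32 for miR-338-3p and 6 for miR-184, which would then be below 1.

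Some list members are known to change in islets together with miR-184 and miR-338-3p. MiR-132, which rises in islets of obese mice while miR-184 and miR-338-3p fall, had a ratio of 0.856 in the authors' deposited table. Its cluster partner miR-212 stood at 0.913 there. Among miRNAs linked to failing islets in diabetic mice, miR-34a, which p53 induces, stood at 0.679, miR-146a at 0.842, miR-383 at 0.957, miR-203 at 1.04 and the hypoxia-induced miR-210 at 1.22 in the authors' deposited table. In that table miR-375, the most abundant miRNA of beta cells and needed for their normal mass, was listed at 1.17, next above miR-184 in the list.

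**Figure D3:**
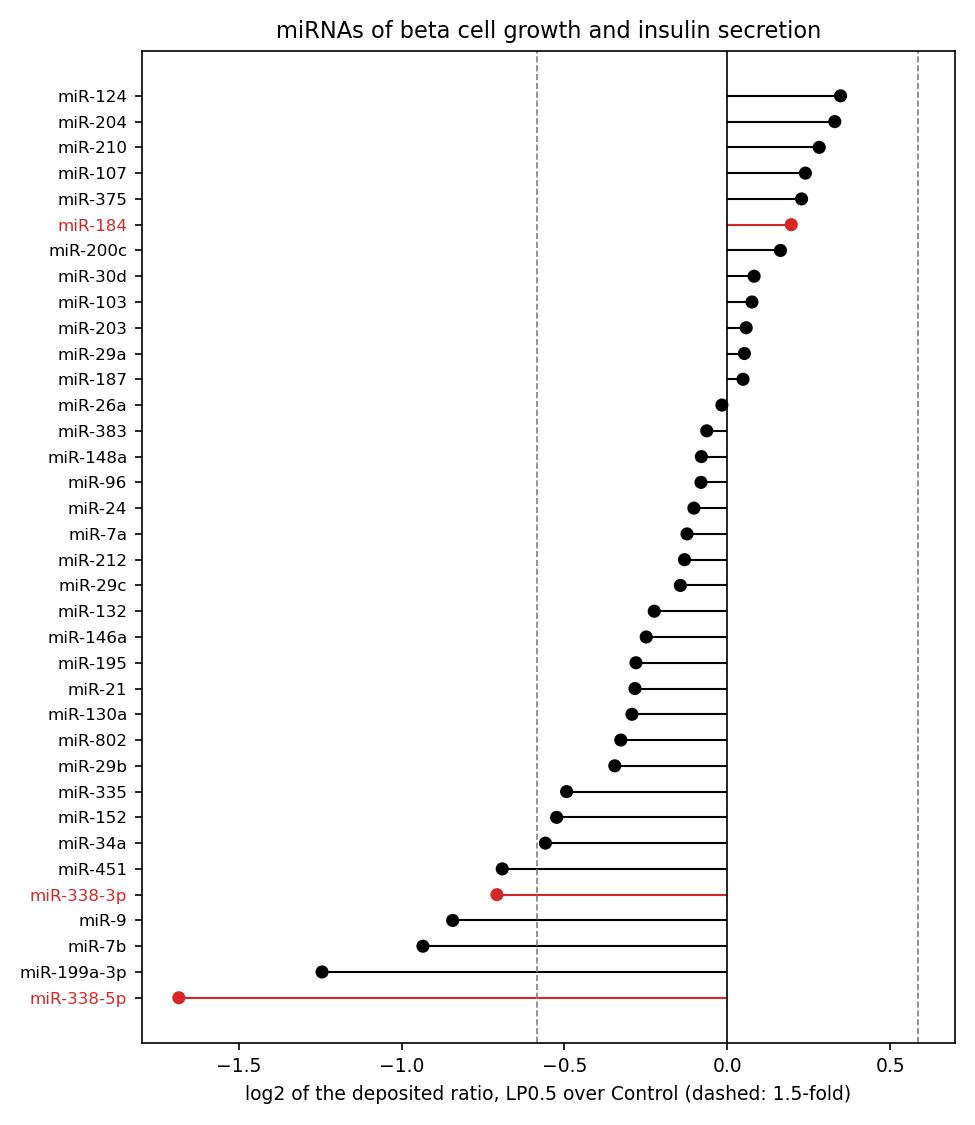
Log2 of the authors' deposited ratio, LP0.5 over Control (horizontal axis, dashed lines at 1.5-fold), for the 36 miRNAs of beta cell growth and insulin secretion with a ratio, in order of the ratio (assays of 1 name averaged on the log2 scale), with miR-184 and both named arms of miR-338 in red. MiR-338-5p is lowest, miR-338-3p is the fifth from the lowest, and miR-184 is among the 12 above 1. With the 4 other controls as reference, which lower every assay of the panel, 6 of the 36 would be above 1. With the heading turned round the order would reverse.

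Markers of the cells an islet preparation can hold were set beside these values. The 10 islet endocrine miRNAs had a median ratio of 1.00, with 5 above 1, 5 below and none at least 1.5-fold from 1. The 3 neural miRNAs, markers of the tissue from which miR-338 is also known, were listed from 0.558 to 1.27, with 1 of them, miR-9, at least 1.5-fold below 1 and with miR-219, the partner of miR-338 in oligodendrocytes, at 0.827 in the authors' deposited table. Of the 3 acinar miRNAs 2 were below 1, miR-216a at 0.726 and miR-216b at 0.970 in the authors' deposited table. None was at least 1.5-fold from 1, with the 2 assays of miR-217 averaged. Those 2 assays lay 0.94 log2 units apart, so the average does not speak for each of them. Both endothelial miRNAs were below 1, and 1 of them, miR-126-5p at 0.647 in the authors' deposited table, was past that limit. Of the 5 fibroblast and stellate cell miRNAs 3 were at least 1.5-fold below 1 and 1 that far above. One of the 3, miR-143, is an average of 2 assays that lay 2.55 log2 units apart. Of the 5 blood cell miRNAs 2 were that far below and 1 above. Over all miRNA assays, counted singly, 16.8% were that far below and 18.6% above. Counted in the same way, 49.1% were below 1 at all. In every marker list, miRNAs with 2 assays were averaged on the log2 scale. Whether cell content has a part in the miR-338 values was not tested.

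The assays most like each member were the 2 nearest above and the 2 nearest below it in log2 ratio within its set, a likeness over 1 comparison only. For miR-184 they were miR-182 and miR-129 above and miR-496 and miR-23b below, listed from 1.13 to 1.15 in the authors' deposited table. For miR-338-3p they were miR-451 and miR-329 above and miR-879 and miR-409-5p below, listed from 0.592 to 0.622 in that table. For miR-338-5p they were miR-326 and miR-467a above and miR-1901 and the starred strand of miR-203 below, from 0.268 to 0.355 there. For the arm-less miR-338 assay they were the starred strand of miR-376a and miR-1944 above and miR-22 and miR-325 below, from 0.915 to 0.922.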

How the data were processed

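Total RNA of islets was measured by TaqMan real-time PCR, per the labels' protocols. The authors deposited linear ratios (fold values), 1 for each of 846 spots, headed as LP0.5 against Control, per the file headers. Limma is named in the submitters' processing notes, with no version or role, and the reference and detection limit were not stated. A further deposited table names the assay of each spot. Its other 12 columns match no sample label and entered no computation, so the limma tests planned for per-sample values were not run and no depth or error can be given.

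Spots were split into the A and B sets by their spot code, and ratios were taken to log2. The ratios are relative to U6 in each set, since its spots average 0 on the log2 scale. Starred strands were left out of the members. List names were looked up among panel names stripped of the species prefix, taking older names for miR-7a, miR-124, miR-199a-5p and miR-126. A difference was counted at 1.5-fold. Named miRNAs are the members, the members of the beta cell growth and secretion list, the controls and the 2 nearest assays on each side of each member. The members and lists were chosen with earlier results of these data known. Alternatives changed the reference, the fold limit and the list members. Counting and re-referencing were tested on simulated data. Sequences are from RefSeq (GRCm38.p6), where both hairpins and their 4 mature strands were matched. The build of the deposited files is not given. Python 3.11.15, numpy 2.4.6, pandas 2.3.3 and matplotlib 3.10.9 were used.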

Additional observations from a re-analysis of the deposited data

How the results depend on the processing

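No ratio has a replicate error, so movement was judged against the mean SD of repeated control spots, which covers spot differences only. It was 0.13 log2 units for the A set and 0.33 for the B set. The B set mean includes an SD of 1.05 for U87, which holds the outlying spot, against 0.03 to 0.32 for the other controls. Against a smaller SD, further B set shifts, such as 0.24 with snoRNA135, could count as moved. No paired analysis was possible because the per-sample columns match no sample label, and leaving out samples could not be run for the same reason. The reference without the outlying U87 spot, and the set median for the list and the panel counts, were chosen after seeing the data. On the log2 scale miR-184 (0.20 with U6) came to -0.00029 with snoRNA135, snoRNA202, U87 and Y1 (the same without the outlying U87 spot, which is in the B set), -0.064 with snoRNA135, 0.045 with snoRNA202, 0.064 with U87 and -0.046 with Y1. MiR-338-3p (-0.71) came to -0.90 with those 4 controls, with or without that spot, -0.97 with snoRNA135, -0.86 with snoRNA202, -0.84 with U87 and -0.95 with Y1. MiR-338-5p (-1.68) came to -1.35 with U87 and -2.20 with Y1, and the arm-less miR-338 assay (-0.12) to 0.21 and -0.64. In the beta cell list 6 members were above 1 with those 4 controls, and 5 without the outlying U87 spot, against 12 with U6. The median log2 ratio of the list came to -0.31 and -0.33, against -0.13. Both references lower every assay of the panel. The other 28 of these values moved by less than that SD or, for counts, by no more than 1.5 times. MiR-338-3p and miR-338-5p stayed at least 1.5-fold below 1 with every reference run. The shifts taken off ran only from -0.035 to 0.26 log2 units in the A set and from -0.33 to 0.51 in the B set. Shifts of that size could not bring either arm back over the limit, so this adds no support. No change of reference bears on whether the miR-338-5p ratio rests on 1 well. U6 and the other controls differ by construction in the shift they give, and which is the better reference was not tested.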
